A study of Mus musculus with 147 samples.

Results

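The synaptonemal complex proteins were followed at the level of RNA through the life of the mouse male germ line, from migrating primordial germ cells to round spermatids. The 7 genes were chosen by name from the 31053 genes of the count table, and all 7 were found: Sycp1, Sycp2, Sycp3, Syce1, Syce2, Syce3 and Tex12. The synaptonemal complex is the protein ladder that holds homologous chromosomes together along their length in meiotic prophase, where crossovers form. SYCP2 and SYCP3 build the axial elements along each chromosome, which become the lateral elements of the ladder. SYCP1 forms the transverse filaments that span the gap, and SYCE1, SYCE2, SYCE3 and TEX12 build the central element in its middle. In the testis the complex is assembled in spermatocytes, which first appear in the second week after birth, and it is taken down before the first meiotic division.

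Cells came from BVSC mice, which carry the reporters Blimp1-mVenus and Stella-ECFP, bred with C57BL/6 females. From E8.5 to E18.5 reporter-positive cells were sorted (Stella-ECFP alone from E14.5), with reporter-negative gonadal cells beside them, and male embryos were picked by a PCR for Sry at E10.5 and E11.5. For E8.5 and E9.5 the study describes no sexing, and some cell names of E10.5 read None in place of Male. The earliest pools may thus hold cells of female embryos. After birth, cells that looked like germ cells were picked from dissociated testes of PND0 to adult males, and some samples of PND14 and PND30 were sorted by DNA content as 4N, 2N or 1N after Hoechst staining. The Helq null embryos descend from chimeras made with BVSC embryonic stem cells, in which 1 guide RNA to exon 1 of Helq had left a small deletion in both alleles, and the number of stem cell clones is not given in the sources used here. Each transcript was read at its 3′ end and counted once by its unique molecular identifier (UMI).

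A pool is the germ cells of one time-point, genotype and replicate, at PND30 also of one DNA content gate. There were 54 wild-type pools from E8.5 to the adult with 7976 germ cells in all, 25 to 446 cells each, and 8 Helq null pools with 702 cells. Wild-type pools held 11061401 to 187711061 UMIs, with a median of 36601264. Levels are given as counts of a gene per 1000000 UMIs of the pool (CPM), and a range or SD is over pools. By the study's account replicates are independent and were taken from several pooled embryos before birth and from a single gonad each after birth. The 96 cell barcodes were used again in each library, so that a barcode names a cell only within its library. Germ cells were taken from clusters built without the 7 genes. By the sum of germ cell genes against that of somatic markers, where a ratio of 0.5 was enough, 22 of 35 clusters were taken as germ cells. Left unnamed were 4 clusters led by Spink1 with globin genes, S100a9, Icam2 and Lcn2, which hold 564 wild-type cells, among them 319 of 377 cells of the first adult replicate, which therefore has no germ cell pool here. By the marker rule alone these 4 would have passed, with ratios of 2.025, 0.928, 1.514 and 1.545, and they were left out for their leading genes. Another cluster led by globin genes, with Spink1 among its leading genes, was kept. It held 155 of the 167 germ cells of PND8 replicate 1. In sums over the cells of a pool, fewer cells of a type and less RNA per cell cannot be told apart. Shares of single cells with a UMI and levels by cluster are given further below.

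Pools of PND12 and PND14 were not alike. A cluster led by 1700018G05Rik, Wfdc10 and Cldn11, the last a gene of Sertoli cells, with Stra8 among its leading genes, held 66 of 72 germ cells of PND12 replicate 1, 53 of 186 of PND12 replicate 2 and 206 of 398 of PND14 replicate 1. No other pool of these time-points gave it 10 cells. In this cluster the germ cell genes summed to 1525.8 CPM and the somatic markers to 1602.8 CPM, a ratio of 0.952. The other clusters taken as germ cells had ratios of at least 1.602, and this cluster passed because 0.5 was enough. The comparisons, and the levels, shares and correlations of PND12-PND14 described below, are given with and without this cluster, and without it PND12 replicate 1 has too few cells for a pool.

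Each gene lies at 1 locus of the mm10 genome, with coordinates from GENCODE. Sycp1 lies on the minus strand at chr3:102818499-102936100, Sycp2 on the minus strand at chr2:178345293-178407685, and Sycp3 on the plus strand at chr10:88459569-88473236. Syce1 is at chr7:140777229-140787852 (minus), Syce2 at chr8:84872111-84888221 (plus), Syce3 at chr15:89390174-89410503 (minus) and Tex12 at chr9:50556819-50561325 (minus), inside Il18 on the other strand but sharing no exon with it. Sycp3 shares 15 pairs of overlapping exons with Chpt1 on the opposite strand, and since the strand setting of the counting is not given in the sources used here, its counts are uncertain. Chpt1 itself had 63.8 ± 18.53 CPM (SD, n = 10) at PND2-PND6 and 28.4 ± 2.39 CPM (SD, n = 4) at PND12-PND14. Between these stages it moved otherwise than Sycp3, which was higher at the later stage. At PND30 both genes were lower in 1N than in 4N cells, Chpt1 with means of 9.53 and 22.98 CPM (n = 2 each). Whether reads of Chpt1 bear on the counts of Sycp3 was not tested.

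Promoters are shown as a description, and whether their motifs bear on the rise of 6 of the genes in the fetal gonad was not tested. The letters CACGTG, the palindromic E-box that basic helix-loop-helix factors such as MAX and USF1 can bind, were searched in the 250 bases before each RefSeq start (GRCm38.p6), where a palindrome reads alike on both strands. They were found in 6.02% of 32851 such windows and in a window of 4 of the 7 genes. The E-box began 94 bases before the start of Sycp1, 93 bases before that of Tex12, and 64 and 43 bases before that of Sycp3. Syce2 held it only in the window of a second start, 88 bases before it, and not in the window of its first start. Sycp2, Syce1 and Syce3, which rose in the fetal gonad, held no E-box, and Syce2 did not rise there. The share of all windows is not a share of genes, since a gene can have several starts. Windows of Sycp1, Sycp3, Tex12 and the first start of Syce2 are printed up to the first annotated exon, 5′ to 3′ on the strand of the gene, with CACGTG in capitals:
Sycp1 (chr3:102936101-102936350, minus strand): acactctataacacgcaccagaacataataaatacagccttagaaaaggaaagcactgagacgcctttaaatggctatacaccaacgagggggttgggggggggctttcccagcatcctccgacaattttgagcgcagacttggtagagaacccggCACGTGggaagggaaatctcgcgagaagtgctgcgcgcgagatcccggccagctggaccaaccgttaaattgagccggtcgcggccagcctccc
Sycp3 (chr10:88459337-88459568, plus strand): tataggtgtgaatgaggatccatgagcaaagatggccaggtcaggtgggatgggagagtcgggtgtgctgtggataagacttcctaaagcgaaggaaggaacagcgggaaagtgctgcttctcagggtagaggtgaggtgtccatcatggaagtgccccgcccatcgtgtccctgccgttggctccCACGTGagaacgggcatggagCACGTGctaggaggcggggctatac
Tex12 (chr9:50561326-50561518, minus strand): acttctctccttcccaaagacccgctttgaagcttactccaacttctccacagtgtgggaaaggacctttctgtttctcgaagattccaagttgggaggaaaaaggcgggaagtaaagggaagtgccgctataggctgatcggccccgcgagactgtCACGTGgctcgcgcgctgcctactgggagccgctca
Syce2 (chr8:84871861-84872110, plus strand): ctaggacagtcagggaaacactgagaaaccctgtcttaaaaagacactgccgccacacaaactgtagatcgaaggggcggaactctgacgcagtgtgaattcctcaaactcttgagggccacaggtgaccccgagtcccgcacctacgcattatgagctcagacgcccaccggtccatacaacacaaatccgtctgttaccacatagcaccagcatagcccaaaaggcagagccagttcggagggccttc
Of the other motifs searched on both strands, which do not contain the E-box, the letters GCGGGA, a core of the E2F site, was found in 16.9% of all windows and in 3 of the 7 genes, and TGACGTCA, the full cAMP response element, in 1.55% and in none of the 7. Absence of these letters says only that the window does not hold them.

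Across the germ line the genes did not all follow the same course. Sycp1, Sycp2, Sycp3, Syce3 and Tex12 were near 0 in migrating germ cells and rose in the fetal gonad. Their later courses differed, with the highest mean of Sycp2 in 4N cells of PND30 (326.5 CPM) and that of Syce3 in 1N cells (305.6 CPM). At PND12-PND14 the means were 703.0 ± 163.3 CPM (Sycp1), 284.2 ± 93.5 CPM (Sycp2), 127.2 ± 44.8 CPM (Sycp3) and 301.8 ± 61 CPM (Syce3, SD, n = 4 each). Without the cluster led by 1700018G05Rik these means were 808.5, 358.5, 178.3 and 352.8 CPM (n = 3). Syce1 climbed in steps from 35.3 ± 18.8 CPM (SD, n = 5) at E8.5-E10.5 to 553.7 ± 44.8 CPM (SD, n = 2) in 4N cells of PND30. Tex12 had its highest mean around birth, 346.4 ± 29.9 CPM (SD, n = 7) at E17.5-PND1. Syce2 ran the other way in the embryo, with its highest mean at E8.5-E10.5, 522.7 ± 33.8 CPM (SD, n = 5).

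**Figure D1:**
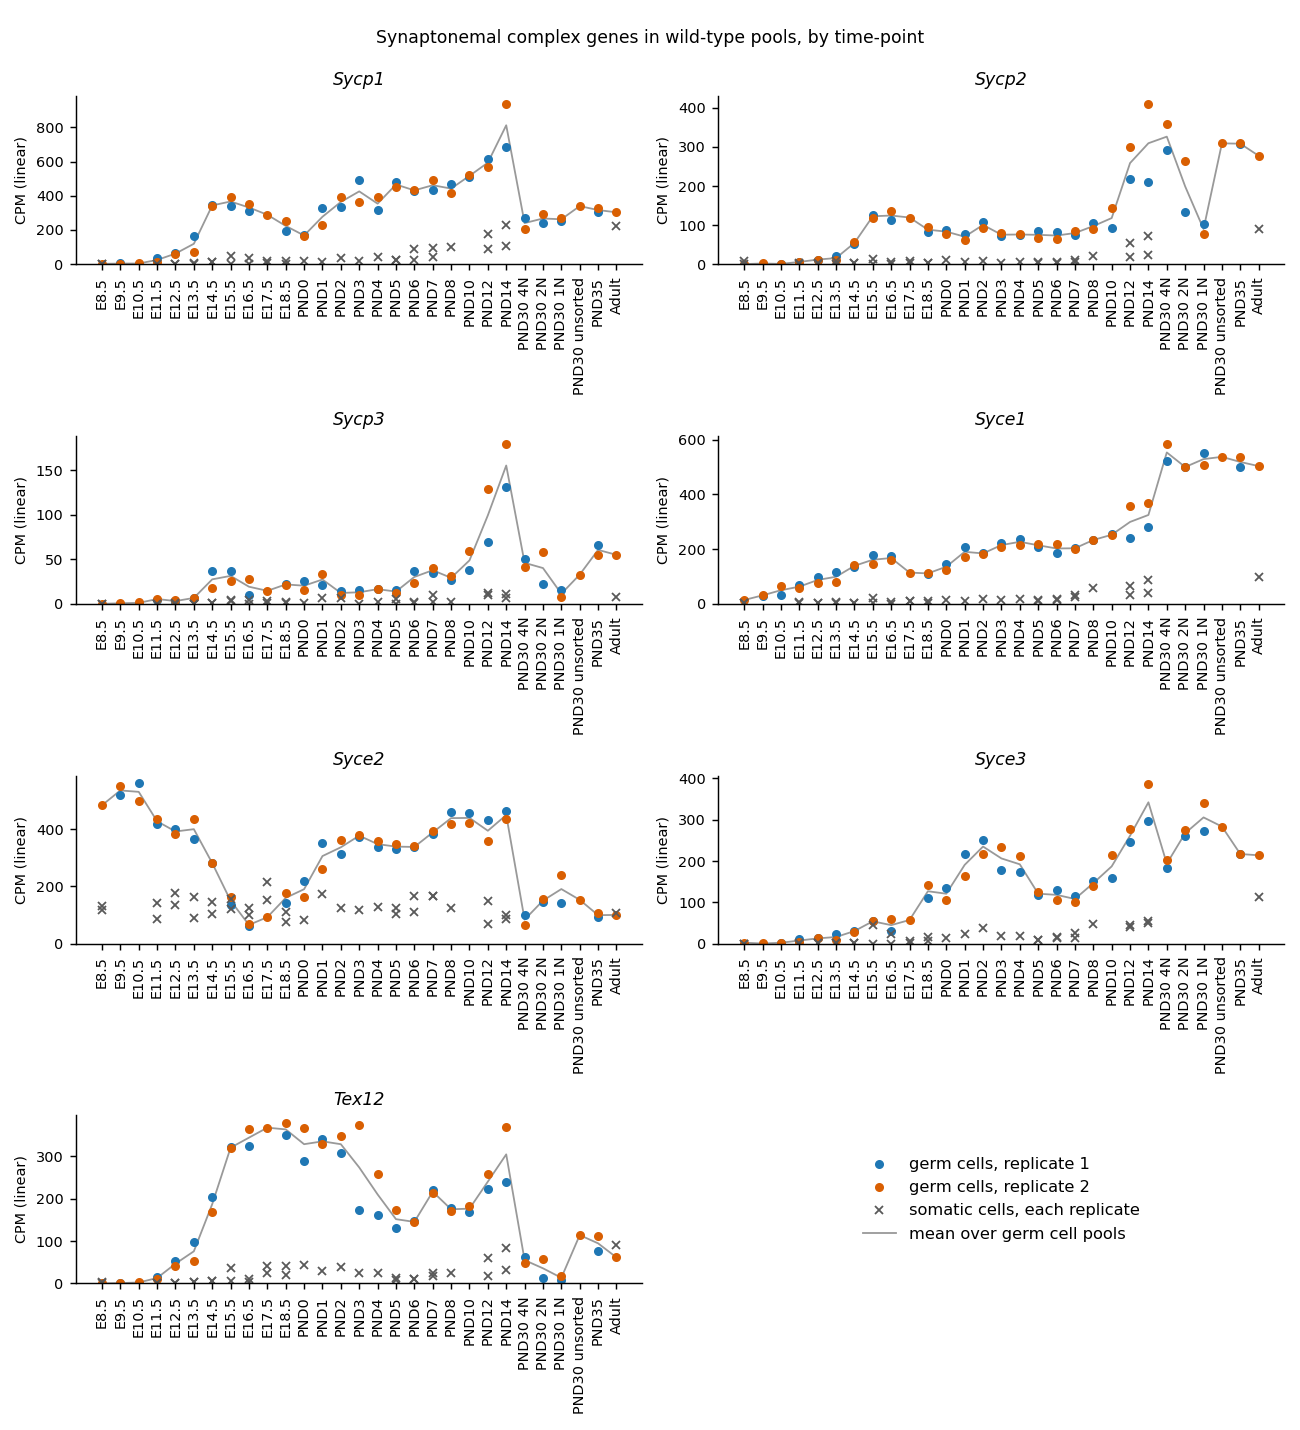
Level of each gene in CPM (linear axis from 0, own scale per gene) against time-point, with blue and orange points for germ cell pools of replicates 1 and 2, crosses for somatic cell pools and a grey line through the mean of the germ cell pools. Syce2 starts at 483.3 CPM and sinks to 63.2 and 67.8 CPM at E16.5, whereas the other genes start low, and Sycp1, Sycp2 and Sycp3 have their highest pool at PND14.

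Ordered by mean level, most neighbouring stages overlapped. Sycp1 was highest at PND12-PND14 and its lowest pool there, 570.1 CPM, lay above the highest of PND7-PND10, 521.0 CPM. For Sycp3 the lowest of the 4 pools of PND12-PND14, 69.9 CPM, likewise lay above the pools of PND35, the next stage in order, at 66.1 and 54.9 CPM. The first stages in the order of Sycp2 (PND30 4N and the 1 pool of unsorted PND30 cells), Syce1 (PND30 4N and unsorted PND30), Syce3 (PND30 1N and PND12-PND14) and Tex12 (E17.5-PND1 and E14.5-E16.5) overlapped each other. Without the cluster led by 1700018G05Rik, the means of Sycp2 and Syce3 at PND12-PND14 lay above those of PND30 4N and PND30 1N, respectively, which were 326.5 and 305.6 CPM. The lowest stage was E8.5-E10.5 for 6 of the genes, and its pools overlapped with those of E11.5-E13.5 only for Syce1. For Syce2 the lowest was PND30 4N with 84.1 ± 24.9 CPM (SD, n = 2), which overlapped with PND35.

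The first comparison asked what changed when germ cells settled in the gonad, E11.5-E13.5 against E8.5-E10.5. Of the 7 genes, 6 rose and none fell, where 6.16% of the 27566 genes tested rose and 4.96% fell (edgeR's quasi-likelihood test with Benjamini-Hochberg adjustment, as in all stage comparisons). Tex12, a central element protein that pairs with SYCE2, had 0, 0.26, 1.40, 1.53 and 3.07 CPM in the pools of E8.5-E10.5 and a lowest value of 11.6, a median of 46.6 and a highest of 98 CPM in those of E11.5-E13.5. The groups did not overlap. The log2 fold change of Tex12 was 5.10 ± 0.58 (SE), with an adjusted p of 1.95e-08. At E8.5-E10.5, with each cell thinned to 50000 UMIs, Tex12 was found in 2.7% of germ and 6.67% of somatic cells. Sycp1 was found in 4.63 and 5.93% and Sycp2 in 2.24 and 14.8%, but Sycp3 in 2.02 and 0% and Syce3 in 3.02 and 0% (means over 5 and 2 pools). Both somatic pools were of E8.5, and Sycp2 was found in 0 and 29.6% of their cells. The fold changes of Tex12, Sycp1, Sycp2, Sycp3 and Syce3 are thus taken against values near the floor, and their sizes are uncertain.

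Sycp1, the transverse filament protein, had 1.71, 4.60, 1.54, 3.21 and 3.71 CPM at E8.5-E10.5, in the order E8.5, E9.5 (both replicates) and E10.5 (both replicates). At E11.5-E13.5 it had 14.4 CPM in the lowest pool, 61.4 CPM as the median and 166.7 CPM in the highest, the first replicate of E13.5. Every gonadal pool was above every migrating pool, and the log2 fold change was 4.49 ± 0.38 (SE, adjusted p 1.5e-11). Within the gonad, the values rose from E11.5 to E13.5 in both replicates.

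The axial element genes rose from still lower levels. Sycp2 went from 0.84 ± 0.78 CPM (SD, n = 5) to 10.9 ± 5.81 CPM (SD, n = 6), a log2 fold change of 3.63 ± 0.48 (SE, adjusted p 6.3e-07). Sycp3 went from 0.74 ± 0.96 to 5.09 ± 1.70 CPM, 2.69 ± 0.55 on the log2 scale (SE, adjusted p 0.000601). Neither gene's groups overlapped, but Sycp3 lost its call without replicate 1 (log2 fold change 2.25). The central element gene Syce3 rose by 2.96 ± 0.44 (log2, SE, adjusted p 5.7e-06).

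Syce1, another central element gene, was already read in migrating cells, with 14.2 CPM at E8.5, 28.7 and 33.6 CPM at E9.5 and 34.3 and 65.6 CPM at E10.5. In the gonad its pools spanned 58.2 to 118.2 CPM, so the groups overlapped, and the rise was 1.16 ± 0.25 (log2, SE, adjusted p 0.00136). That call was lost without replicate 1 (0.93). Syce2 had 483.3, 518.2, 551.8, 562.1 and 498.2 CPM in migrating cells and 364.5 to 436.6 CPM in gonadal ones. These groups did not overlap, but the log2 fold change of -0.42 ± 0.29 (SE) missed the threshold with an adjusted p of 0.424. Outside the germ line Syce2 was read as well: somatic pools of E11.5-E13.5 had 86.5 to 176.9 CPM of Syce2, and at most 7.51 CPM of any other gene of the 7.

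Genes that work with the complex moved in the same comparison. Of 24 partners in synapsis, chromosome axes and recombination, 14 rose and 1 fell. Of 11 regulators of meiotic entry and other germ cell genes (called regulators below), 10 rose and none fell. Both lists were chosen with earlier results of these data known. Ddx4, Dazl and Mael are on the list of regulators and also among the germ genes used to choose the clusters. That list is thus not independent of the choice of cells. The partner with the largest change was Ankrd31, a factor in placing meiotic DNA breaks, from 0.13 ± 0.12 to 4.80 ± 4.41 CPM (log2 fold change 5.15). Gm4969, which encodes MEIOSIN, had no UMI at E8.5-E10.5 and 181 UMIs at E11.5-E13.5, at least 61.5-fold higher by the floor of 3 counts over the group.

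From E11.5-E13.5 to E14.5-E16.5, as male germ cells enter mitotic arrest, 6 of the genes rose and Syce2 fell. At this step 35.4% of all genes tested rose and 11.9% fell, and the median log2 fold change of all genes was 0.76, so a rise by itself sets a gene less apart than before. Sycp2 rose most, by 2.99 ± 0.42 (log2, SE, adjusted p 2.41e-07). It had 50.9 and 57.5 CPM at E14.5, 126.2 and 118.8 CPM at E15.5 and 112.1 and 136.8 CPM at E16.5, all above the highest earlier pool of 21.4 CPM.

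Tex12 rose by 2.43 ± 0.47 (log2, SE, adjusted p 4.73e-05), Sycp3 by 2.17 ± 0.49 (adjusted p 0.000359) and Sycp1 by 2.16 ± 0.31 (adjusted p 5.39e-07). Sycp1 was level within the stage, between 309.4 and 390.0 CPM in the 6 pools. Syce3 rose by 1.63 ± 0.38 (SE, adjusted p 0.000599), a call lost without replicate 2 (0.95). The rise of Syce1, 0.72 ± 0.24 (SE, adjusted p 0.012), lies close to the median of all genes, and it lost its call without either replicate (0.71 and 0.50) and with germ cells taken by a rule on UMIs with no filter on cells (0.58). None of the 6 risers overlapped between the stages. The share of all genes without overlap was not counted, in this or any other stage comparison.

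Syce2, whose product assembles into the filaments of the central element, ran against this common course. Its pools had 281.9 and 280.7 CPM at E14.5, 136.4 and 163.6 CPM at E15.5, and 63.2 and 67.8 CPM at E16.5. The fall was seen in both replicates at each step, and by E16.5 both germ cell pools lay below the somatic pools of E14.5-E16.5, which had 99.2 to 155.4 CPM. The log2 fold change was -1.41 ± 0.28 (SE, adjusted p 0.000104), and Syce2 stayed called and lower in all 12 alternatives tried, between -1.54 and -1.29. Partners rose in 13 of 24 cases and fell in 1, with Rnf212, a crossover factor, from 0.73 ± 1.52 to 61.6 ± 35.8 CPM (log2 fold change 6.08). Of the regulators 5 rose and none fell, and Taf7l, a germ cell form of a TFIID subunit, rose most (4.0 on the log2 scale).

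**Figure D2:**
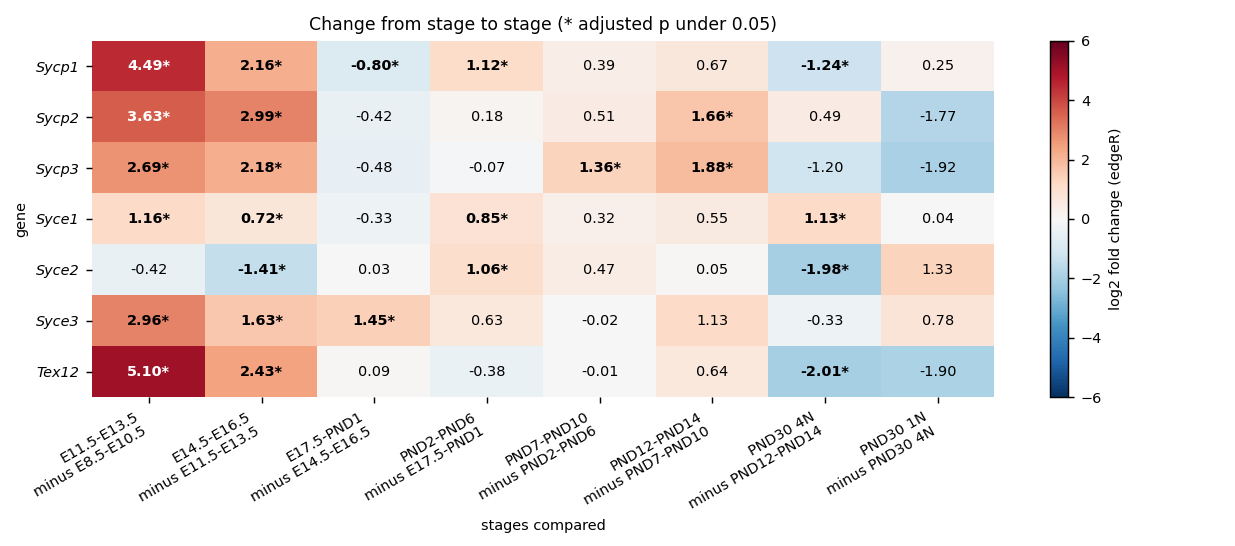
Log2 fold change of each gene (rows) between consecutive stages (columns) from edgeR, red for higher and blue for lower in the later stage, with an asterisk where the adjusted p was under 0.05. The first column holds 6 rises up to 5.10, and Syce2 is the blue cell of the second column with -1.41.

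From E14.5-E16.5 to E17.5-PND1, when prospermatogonia are quiescent, 2 of the 7 passed, Syce3 as higher and Sycp1 as lower, where 23.6% of all genes passed in either direction. Syce3 had 57.3 CPM at E17.5, 111.1 and 142.8 CPM at E18.5, 135.5 and 106.3 CPM at PND0 and 217.2 and 164.4 CPM at PND1. Only the pool of E17.5 lay within the earlier range of 29.4 to 59.8 CPM. The log2 fold change was 1.45 ± 0.37 (SE, adjusted p 0.00391), and the call was lost without either replicate (0.87 and 1.73), which leaves 3 or 4 later pools.

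Sycp1 fell from 347.0 ± 25.9 CPM (SD, n = 6) to 232.1 ± 61.4 CPM (SD, n = 7), a log2 fold change of -0.80 ± 0.29 (SE, adjusted p 0.039). Its groups overlapped, because PND1 replicate 1 had 326.8 CPM. The call was lost in 5 of 12 alternatives, among them no TMM factors (-0.58), the rule on UMIs (-0.81) and unnamed clusters counted as germ cells (-0.77). Syce2 had its turn within this stage: 92.6 CPM at E17.5, 142.7 and 177.3 at E18.5, 217.7 and 162.9 at PND0 and 350.8 and 261.0 at PND1, which left the stage as a whole at 0.03 ± 0.27 (log2, SE, adjusted p 0.961) against E14.5-E16.5. Of the partners 1 rose and 4 fell, Hormad2, an axis protein, most of them (-1.39), and no regulator passed the test, with 1 of 11 at an unadjusted p under 0.05. Higher genes made 55.3% of all calls with TMM and 69.9% without it.

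From E17.5-PND1 to PND2-PND6, when germ cells resume division and become spermatogonia, Sycp1, Syce1 and Syce2 rose and none fell, so that 3 of the 7 passed where 50.9% of all genes passed in either direction. Higher genes made 34.4% of those calls, and the median log2 fold change of all genes was -0.54. Sycp1 spanned 314.9 to 489.7 CPM with a median of 411.8 CPM, against 163.3 to 326.8 CPM and a median of 227.4 CPM before, 1.12 ± 0.27 on the log2 scale (SE, adjusted p 0.000659). Syce2 spanned 312.8 to 380.6 CPM with a median of 343.0 CPM (log2 fold change 1.06 ± 0.25, SE, adjusted p 0.000534). Syce1 rose by 0.85 ± 0.21 (SE, adjusted p 0.000835).

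All 3 calls were lost without replicate 2, with log2 fold changes of 1.20, 0.87 and 0.81. The groups of each of the 3 overlapped through the pools of PND1. Tex12 had the widest range in CPM of the 7 within this stage, from 129.8 CPM at PND5 to 374.0 CPM in PND3 replicate 2, where replicate 1 of that day had 174.0 CPM, and its log2 fold change of -0.38 ± 0.37 (SE, adjusted p 0.411) did not pass. Partners rose in 8 cases and fell in 3, with Spo11, which makes the DNA breaks of meiosis, from 51.1 ± 16.51 down to 8.62 ± 6.80 CPM (-2.34). Regulators rose in 3 cases and fell in 1, and Stra8, which starts meiosis under retinoic acid, went from 33 ± 26.2 to 185.3 ± 69.4 CPM (2.79).

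From PND2-PND6 to PND7-PND10 only Sycp3 rose, where 10.0% of all genes rose and 3.97% fell. It had 34.9 and 40.5 CPM at PND7, 27.2 and 31.2 CPM at PND8 and 38 and 59.5 CPM at PND10, against a range of 10.3 to 37.2 CPM and a median of 15.6 CPM at PND2-PND6. The groups overlapped through PND6 replicate 1, the highest of the earlier pools. The log2 fold change of 1.36 ± 0.41 (SE, adjusted p 0.0208) lost its call without either replicate (1.57 and 0.83) and without the pools of PND8 (1.47). Higher genes made 71.6% of all calls with TMM, 49% without it and 31.7% in DESeq2. Of the partners 4 rose and 1 fell, led by Prdm9, which marks the sites of recombination (2.39), and of the regulators 2 rose and none fell, led by Meioc (1.56).

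From PND7-PND10 to PND12-PND14, when the first spermatocytes form, both axial element genes rose and no member fell, where 7.16% of all genes rose and 0.99% fell. Sycp2 had 217.4 and 300.2 CPM at PND12 and 209.1 and 410.1 CPM at PND14, against at most 142.9 CPM before. Sycp3 had 69.9 and 128.6 CPM at PND12 and 130.7 and 179.4 CPM at PND14, against at most 59.5 CPM before. Neither gene's groups overlapped, and replicate 2 was the higher at both ages.

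The log2 fold changes were 1.66 ± 0.42 for Sycp2 (SE, adjusted p 0.00777) and 1.88 ± 0.51 for Sycp3 (SE, adjusted p 0.0135). Without replicate 2 neither passed (1.06 and 1.46, and 1 gene was called in all), and Sycp3 did not without replicate 1 (2.00) or without the pools of PND8 (1.77, adjusted p 0.054). Without the cluster led by 1700018G05Rik, both rose more, by 2.09 ± 0.43 and 2.43 ± 0.52 (SE, adjusted p 0.000363 and 0.000621), and Syce1 (0.89 ± 0.26, adjusted p 0.0141) and Syce3 (1.45 ± 0.43, adjusted p 0.0142) passed as well, where 12.6% of all genes rose and 4.25% fell.

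Sycp1, Syce3 and Tex12 did not pass with all cells. Their pools did not overlap, but how many of all genes did so was not counted. Sycp1 went from 473.4 ± 43 CPM (SD, n = 6) to 703.0 ± 163.3 CPM (SD, n = 4), with a log2 fold change of 0.67 ± 0.33 (SE, adjusted p 0.232). Syce2 had the same mean at both stages to within its spread, 422.0 ± 31.3 and 421.7 ± 44.8 CPM (log2 fold change 0.05 ± 0.31, SE, adjusted p 0.986). Partners rose in 7 cases and fell in none, Spo11 most (3.38), and regulators in 3 and none, Mybl1, the spermatocyte transcription factor A-MYB, most (3.11). In somatic pools of PND12-PND14 the medians of all genes but Syce2 were above those of every earlier stage, with 86.3 to 230.1 CPM of Sycp1, and whether this is RNA of germ cells was not tested.

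At PND14 the DNA content gates show the same spread from within. The 2N cells of replicate 1 had 497.8 CPM of Sycp1, 106.8 CPM of Sycp2, 50.2 CPM of Sycp3 and 160.2 CPM of Tex12. The 4N cells of that replicate had 881.7, 313.5, 212.9 and 320.6 CPM of the same genes. In replicate 2, 2N cells had 957.0, 443.7, 236.0 and 383.2 CPM, near or above its unsorted cells with 929.3, 397.3, 157.7 and 365.2 CPM. For each of the 7 genes the 2N cells of the replicates lay further apart than the 2N and the unsorted cells of replicate 2, and with 1 sample per gate and replicate no test was made.

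Of all clusters, the one led by Gm35572, with Hist1h2ba among its genes, had the highest level of every gene but Syce1 and Syce2. It had 920 CPM of Sycp1, 483 of Sycp2, 225 of Sycp3, 456 of Syce1, 347 of Syce2, 411 of Syce3 and 405 of Tex12. The cluster led by Pou5f2, a POU factor of male germ cells, mostly of PND35, adult and PND30 4N cells, had 308, 357, 63.7, 568, 79.6, 190 and 94.4 CPM of the same genes in that order, the highest level of Syce1. Syce2 was highest in the cluster led by Prdm9, with 523 CPM. Clusters are given as a description, since the 7 genes were left out of the clustering but vary with its stages.

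Against PND12-PND14, 4N cells of PND30, the gate that holds later spermatocytes, had less of Sycp1, Syce2 and Tex12 and more of Syce1, where 23.5% of all genes were higher and 25.1% lower. Syce2 had 101.7 and 66.5 CPM in the 4N pools against 358.2 to 463.8 CPM before, a log2 fold change of -1.98 ± 0.46 (SE, adjusted p 0.000505). Tex12 had 61.4 and 48.7 CPM against 223.1 to 370.2 CPM (-2.01 ± 0.73, SE, adjusted p 0.0207). Sycp1 had 272.0 and 208.1 CPM against 570.1 to 937.0 CPM (-1.24 ± 0.48, SE, adjusted p 0.0288).

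Syce1 was the gene that went up, with 522.0 and 585.4 CPM in 4N cells against 240.7 to 369.3 CPM (1.13 ± 0.34, SE, adjusted p 0.00571). None of these groups overlapped, with the share among all genes not counted. Sycp1 lost its call in 7 of 13 alternatives, among them every gene with 1 UMI kept (-1.12, adjusted p 0.0505), no filter on cells (-1.18), the other rule on UMIs (-1.32) and unnamed clusters counted as germ cells (-1.32). DESeq2 did not call Sycp1 (-0.71) or Tex12 (-1.46), and without the cluster led by 1700018G05Rik the rise of Syce1 was not called (0.80). Without replicate 1, Sycp1, Syce1 and Tex12 lost their calls (-1.80, 0.77 and -2.62), and without replicate 2, Sycp1, Syce2 and Tex12 did (-0.63, -1.50 and -1.27). Sycp2 had 292.9 and 360.1 CPM and overlapped the earlier pools (0.49 ± 0.57, SE, adjusted p 0.5), and Sycp3 had 50.5 and 41.5 CPM, below all 4 of them, with an adjusted p of 0.173.

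Of the partners 10 were lower and 3 higher in the 4N cells, and of the regulators 5 lower and none higher. Rad21l, a meiotic cohesin, had 938 UMIs at PND12-PND14 and none in the 4N pools, at least 112.3-fold lower by the floor of 3 counts. Gm4969 had 3276 UMIs at PND12-PND14 and 1 UMI in the 4N pools, a ratio of 1176-fold with an exact 95% counting interval of 211 to 46483. Stag3, a cohesin of the axes, was among the 3 higher ones, with 255.1 ± 1.46 CPM (SD, n = 2) against 159.4 ± 24.4 CPM (SD, n = 4) and an adjusted p of 0.0133.

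**Figure D3:**
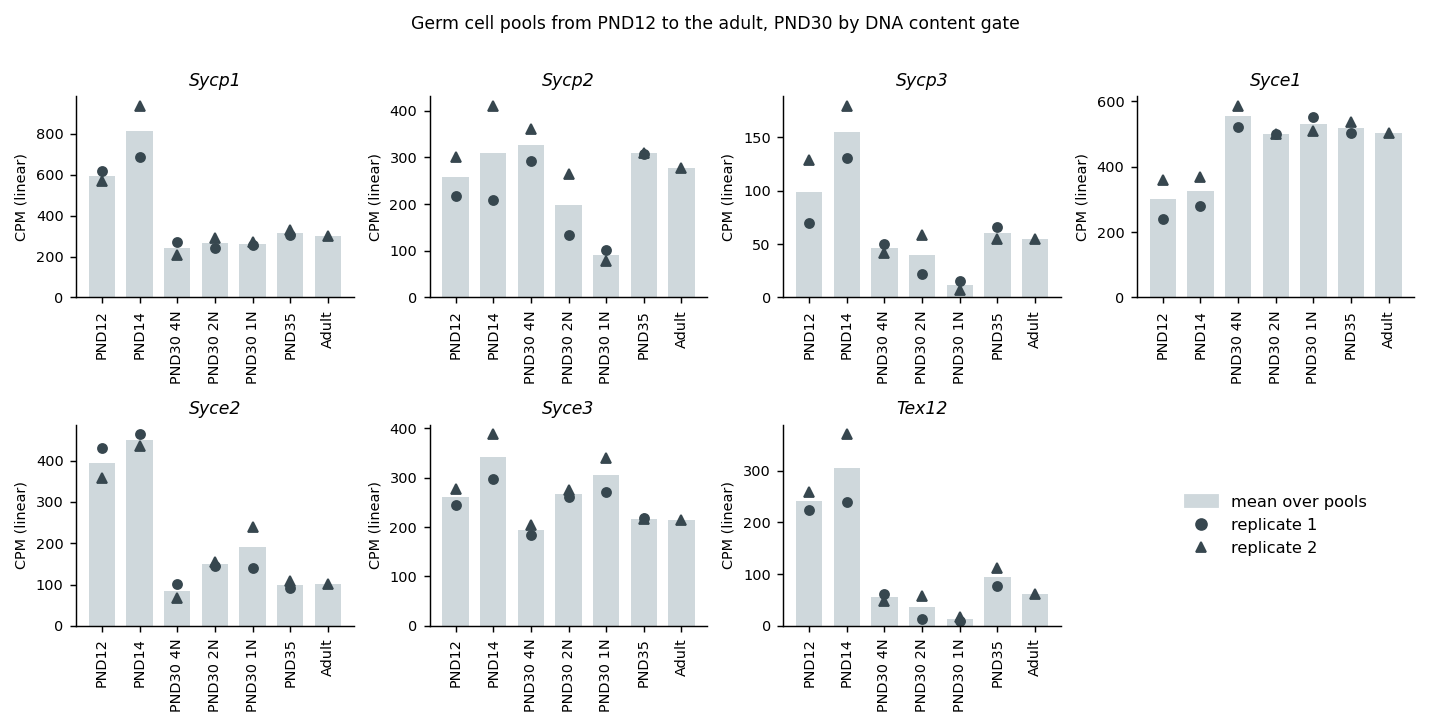
CPM (linear axis from 0) of each gene in germ cell pools from PND12 to the adult, with bars for the mean over pools and a circle and a triangle for replicates 1 and 2. Syce1 stays between 500.1 and 585.4 CPM in all pools from PND30 on, while Tex12 and Sycp3 are lowest in the 1N gate, at 9.02 to 17.7 and 7.44 to 15.3 CPM.

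The comparison of the 1N gate, which holds round spermatids, with the 4N gate of PND30 gave no call among the 7 genes in the fit over all pools, where 5.34% of all genes were higher and 9.6% lower, and 4 of the 7 had an unadjusted p under 0.05. DESeq2 called only Syce2 (1.83, adjusted p 0.00036). In the fit over all pools with cells thinned to 50000 UMIs, Sycp2 (adjusted p 0.0045), Sycp3 (0.0257), Syce2 (0.0318) and Tex12 (0.00754) were called, and without TMM factors Sycp2 (0.0427) and Syce2 (0.0373). By the study's account the gates of one replicate came from the same gonad, so the gates of PND30 were also fitted alone with the replicate as a block, in which 5 of the 7 were called, where 22.2% of all genes were higher and 16.9% lower. With the gates alone but no block, the same genes except Tex12 (adjusted p 0.0514) were called, where 15.3% of all genes were higher and 12.8% lower.

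In the fit with the block the axial element genes were lower in 1N cells. Sycp2 had 102.5 and 77.2 CPM in 1N against 292.9 and 360.1 CPM in 4N cells (log2 fold change -1.68 ± 0.29, SE, adjusted p 0.000107 with the block and 0.0774 over all pools). Sycp3 had 15.3 and 7.44 CPM against 50.5 and 41.5 CPM (-1.87 ± 0.48, SE, adjusted p 0.00395 with the block and 0.122 over all pools). Tex12 was lower too, at 9.02 and 17.7 CPM against 61.4 and 48.7 CPM (-2.10 ± 0.49, SE, adjusted p 0.00195 with the block and 0.108 over all pools).

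The other central element genes did not follow. Syce2 had 141.1 and 240.2 CPM in 1N against 101.7 and 66.5 CPM in 4N cells (1.32 ± 0.33, SE, adjusted p 0.00328 with the block and 0.0596 over all pools). Syce3 had 271.6 and 339.7 CPM against 183.8 and 203.5 CPM (0.81 ± 0.24, SE, adjusted p 0.00992 with the block and 0.5 over all pools). The pools of Syce1 (550.3 and 508.3 against 522.0 and 585.4 CPM) and Sycp1 (254.5 and 270.1 against 272.0 and 208.1 CPM) overlapped between the gates, with log2 fold changes of 0.09 ± 0.18 and 0.28 ± 0.24 (SE) in the fit with the block. The 2N pools lay apart from each other for Sycp2 (133.1 and 264.8 CPM), Sycp3 (22 and 58.3 CPM) and Tex12 (13.4 and 58.1 CPM), replicate 2 being the higher each time.

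Partners were lower in 6 cases and higher in 2, with Terb2, which ties telomeres to the nuclear envelope, at 1.14 ± 0.27 CPM in 1N against 15.9 ± 0.37 CPM in 4N cells (SD, n = 2 each, log2 fold change -3.69). Regulators were lower in 2 cases and higher in none, Rbm46 most (-2.27). Higher genes made 35.7% of all calls with TMM and 62.2% in DESeq2. In the adult, the 1 pool with 446 germ cells had 303.0 CPM of Sycp1, 277.5 of Sycp2, 54.9 of Sycp3, 503.7 of Syce1, 100.4 of Syce2, 213.9 of Syce3 and 61.5 of Tex12, close to the pools of PND35, which had 303.2 and 329.3 CPM of Sycp1 and 76.9 and 112.6 CPM of Tex12.

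How many cells held the transcripts was counted after thinning each cell to 50000 UMIs, since depth differed between stages. Median depth before thinning was 348987 UMIs in germ cells and 473237 in somatic cells of E8.5-E10.5, and 282322 and 172646 at PND12-PND14. A UMI of Sycp1 was found in 4.63 ± 2.16% of germ cells at E8.5-E10.5 (SD over 5 pools), no more than the 5.93 ± 2.10% of somatic cells (SD over 2 pools). These somatic pools were both of E8.5, from replicates without a germ cell pool, so they are not a matched background. At E11.5-E13.5 the share was 60.8 ± 24.9% of germ cells against 7.45 ± 8.92% of somatic cells. From E14.5-E16.5 on, 95.1 to 100% of germ cells had a UMI of Sycp1. Without thinning, Sycp1 was found in 10.8% of germ and 16.1% of somatic cells of E8.5-E10.5, and in 76.2% and 30.4% at E11.5-E13.5.

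Sycp3 stayed patchy. It was found in 43.2 ± 11.46% of germ cells at E14.5-E16.5 (SD, 6 pools), in 36.7 ± 8.33% at PND2-PND6 (10 pools), in 77.9 ± 14.3% at PND12-PND14 (4 pools, and 90.5 ± 2.99% over 3 pools without the cluster led by 1700018G05Rik) and in 26.2 ± 12.7% of 1N cells of PND30 (2 pools). In somatic cells of PND12-PND14 it was 21.9 ± 5.68% (3 pools). Without thinning, Sycp3 was found in 94.1% of germ and 42.3% of somatic cells of PND12-PND14 and in 57% of 1N cells. Its unthinned share was 68.7% of germ cells at E14.5-E16.5, 65.1% at PND2-PND6 and 97.5% of 4N cells of PND30. Tex12 went from 98.4 ± 1.3% of germ cells at PND12-PND14 to 71.4 ± 3.14% of 4N and 23.7 ± 0.94% of 1N cells, and without thinning from 99.5% to 94.6% and 49.3%. Without that cluster the thinned share of Tex12 at PND12-PND14 was 99.8 ± 0.32% (3 pools).

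Syce2 was found in most cells of both kinds. At E8.5-E10.5 it was in 100% of germ cells and 93.7 ± 3.67% of somatic cells. Its lowest share in somatic cells was 76.8 ± 15% at E14.5-E16.5, and its lowest share in germ cells was 84.4 ± 5.96% in 4N cells of PND30, so its share does not mark germ cells. All 7 genes together were found in 0 of 437 germ cells at E8.5-E10.5, which allows a share of up to 0.686% by counting error alone, in 120 of 547 (21.9%) at E14.5-E16.5, 725 of 961 (75.4%) at PND12-PND14, or 87.4% of 653 without the cluster led by 1700018G05Rik, 51.8% of the 276 4N cells and 12 of 272 (4.41%) 1N cells. In somatic cells of PND12-PND14 it was 10.2%. These shares are of cells picked or sorted, and the gates set part of them.

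**Figure D4:**
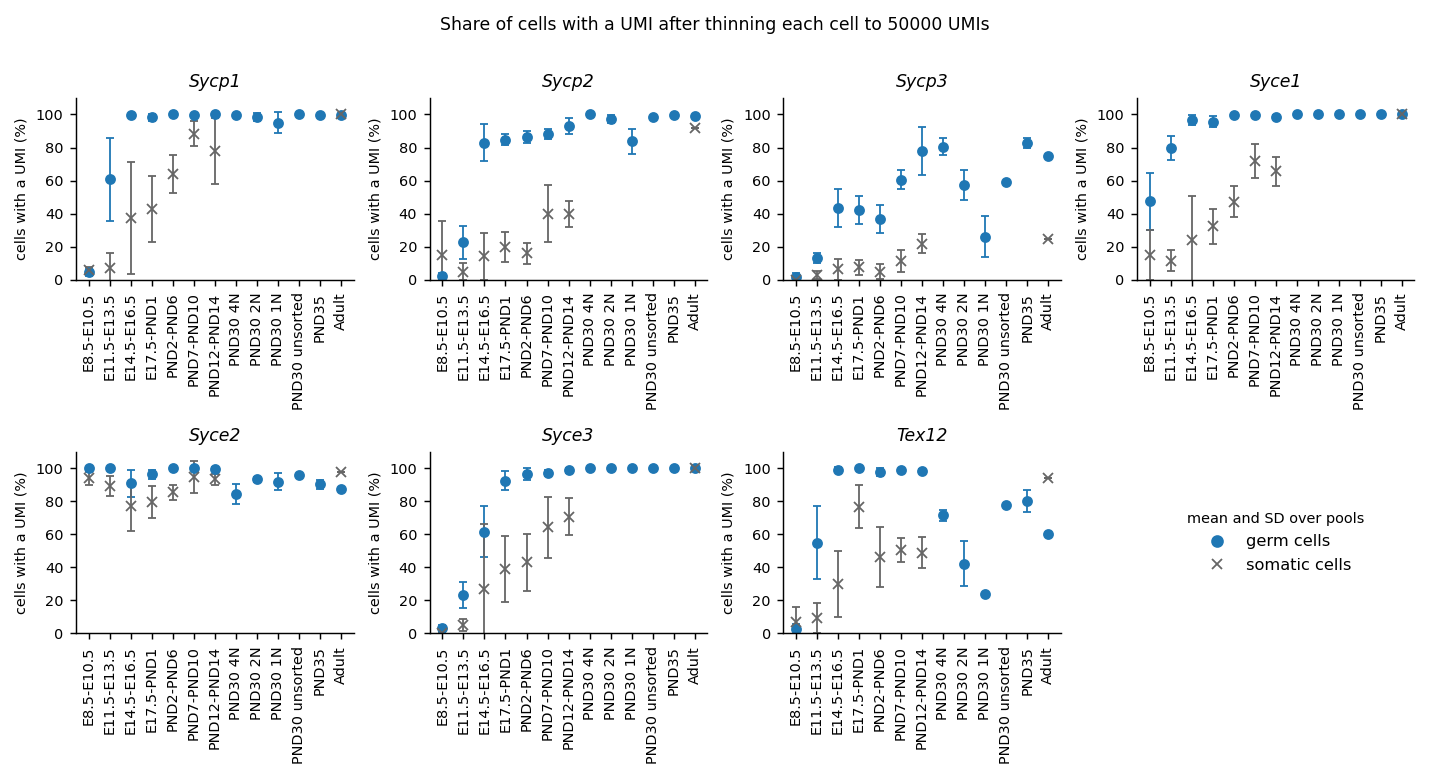
Share of cells (percent, axis from 0) with at least 1 UMI of each gene after thinning to 50000 UMIs, by stage, with blue points for germ cells and crosses for somatic cells, as mean and SD over pools. Sycp3 stays at or below 82.8% in every stage, and Syce2 at or above 76.8% in both kinds of cells.

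In the fetal gonad, germ cells of the distal and the proximal part, relative to the mesonephros, were compared in 8 pairs of one time-point and replicate from E13.5 to E16.5. No gene of the 7 differed in an exact two-sided sign-flip permutation test, with p from 0.227 for Syce2 to 0.977 for Sycp2, where the smallest p that 8 pairs allow is 0.00781. The mean difference of Syce2 was -0.21 ± 0.48 on the scale of log2(CPM + 1) (SD of the differences, n = 8 pairs), with 3 of 8 pairs higher in the distal part. In E15.5 replicate 1 it was 78.6 CPM in distal and 202.3 CPM in proximal cells, the widest gap of the 8 pairs in CPM. Tex12 had a mean difference of 0.06 ± 0.30 (SD) with 4 of 8 pairs higher, and Sycp3 one of -0.16 ± 0.95 (SD) with 3 of 8.

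The last comparison asked whether the loss of Helq, which encodes a DNA helicase of repair, changed the genes in germ cells of E11.5 to E15.5. UMIs of Helq were not fewer in null pools, 15.9 to 40.3 CPM against 19 to 28.1 CPM in wild type, and since UMIs lie at the 3′ end and the deletion in exon 1, they check nothing. With time-point as a covariate, 8 null and 10 wild-type pools were compared, and none of the 7 genes passed, where 0.352% of 18732 genes were higher and 0.496% lower. At an unadjusted p under 0.05 there were 2, Sycp2 and Sycp3. DESeq2, where 1.15% of genes were higher and 1.67% lower, called 1 of them, Sycp2 (0.68 ± 0.21, SE, adjusted p 0.0408).

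Sycp2 had 30.3 and 47.9 CPM in null pools of E13.5 against 21.4 and 9.60 CPM in wild type, and 134.8 and 134.6 CPM against 50.9 and 57.5 CPM at E14.5. At E15.5 the order was the other way, with 107.5 and 91.4 CPM in null against 126.2 and 118.8 CPM in wild type. Over all time-points the log2 fold change was 0.69 ± 0.20 (SE, adjusted p 0.141), and its adjusted p ran from 0.0408 to 0.302 over 22 alternatives. For Sycp3 it was 0.80 ± 0.33 (SE, adjusted p 0.394).

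At E15.5, with 2 pools of each genotype, the pools of 5 of the 7 genes did not overlap, where those of 51.8% of the 18732 genes did not. Besides Sycp2, these were Tex12, Syce3 and Syce1, lower in null pools, and Syce2, higher in them. Tex12 had 196.7 and 199.0 CPM in null against 321.3 and 320.1 CPM in wild type, and Syce3 had 15.1 and 28.7 CPM against 53.9 and 54.4 CPM. Syce1 had 102.2 and 140.3 CPM against 178.6 and 144.1 CPM, and Syce2 had 229.5 and 221.1 CPM against 136.4 and 163.6 CPM. This time-point was chosen after its values were seen, and no test was made at it alone. Over all time-points the log2 fold changes of Tex12 and Syce3 were 0.19 ± 0.20 and -0.32 ± 0.30 (SE, adjusted p 0.815 and 0.791). The other 3 genes had log2 fold changes between -0.04 and 0.09. Of the 24 partners only Meiob, a recombination protein, passed and was lower in the null pools (1.26 ± 1.02 against 7.03 ± 6.01 CPM, log2 fold change -2.72, adjusted p 0.031), and none of the 11 regulators did, with 2 at an unadjusted p under 0.05.

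**Figure D5:**
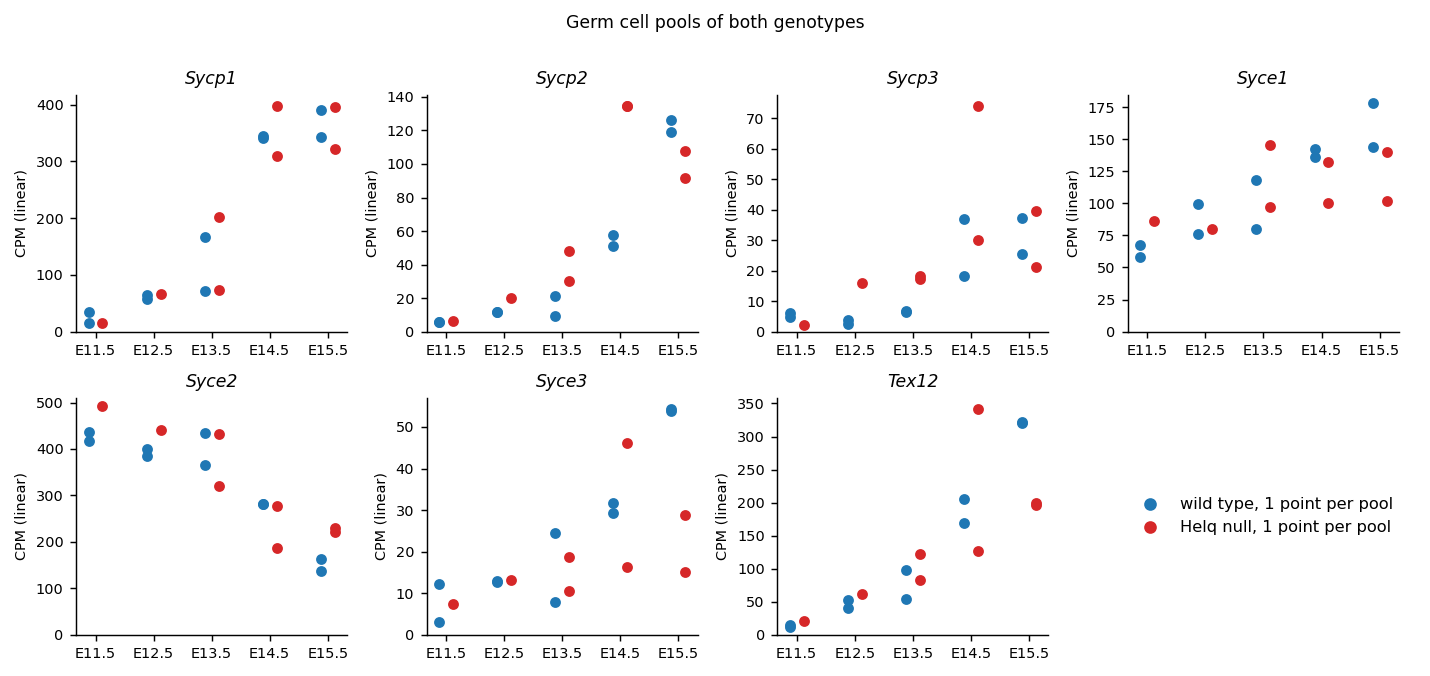
CPM (linear axis from 0) of each gene by time-point, with a blue point for each wild-type and a red point for each Helq null pool. Sycp2 is above wild type in both null pools of E14.5 (134.6 and 134.8 against 50.9 and 57.5 CPM) and below it at E15.5.

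Over the 54 wild-type pools, Syce2 had a negative Pearson correlation with each of the other 6. Its Pearson correlation of log2(CPM + 1) with them was between -0.56 (Sycp2) and -0.26 (Tex12), and that of all other pairs between 0.49 (Syce1 and Tex12) and 0.91 (Sycp1 and Sycp2, Sycp2 and Syce3). Without the cluster led by 1700018G05Rik (53 pools) these ranges were -0.57 to -0.27 and 0.49 to 0.91. By ranks the pair of Syce2 and Sycp1 was at 0.011 (Spearman). Pools share stages and depth, and these are descriptions.

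Among 17582 genes with at least 10 CPM in a pool, Ankrd31 was most like the mean of the 7 (Pearson r 0.96), followed by Ccdc172 (0.95), Tuba3b (0.94), Tmem9b (0.94) and Acss2 (0.93). By ranks, 2 of these 5, Acss2 and Ankrd31, were again among the first 5. Gene by gene, the most like were Ccdc172 for Sycp1 (0.95), Cox7b2 for Sycp2 (0.95), Ankrd31 for Sycp3 (0.89), 1700018B24Rik for Syce1 (0.96), Tmem9b for Syce3 (0.97) and Gpat2 for Tex12 (0.97). Syce2 was most like Papola, a poly(A) polymerase (0.93), which had 326.0 ± 32.9 CPM at E11.5-E13.5 (SD, n = 6), 182.4 ± 61.1 CPM at E14.5-E16.5 (SD, n = 6) and 326.9 ± 45.4 CPM at PND12-PND14 (SD, n = 4).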

How the data were processed

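The authors read the 3′ ends of transcripts of single cells, took barcodes and UMIs from the reads with UMI-tools, used STAR to map them to mm10 and featureCounts to assign them to genes. The deposited values are UMI counts without normalization. Cells with over 2000 genes and 10000 to 1000000 UMIs were kept. No doublet caller was run, since cells were picked or sorted singly. Cells were clustered with scanpy 1.11.5 (1000 variable genes, 30 components, 20 neighbours, resolution 1) without 51 genes, among them the 7 described. A cluster was germ cell-like with at least 3 germ cell markers and 5 germ genes at 0.5 or more of the somatic marker sum; 4 clusters were left unnamed after their leading genes were seen. Counts were summed per pool of at least 10 germ cells, which left out 2 wild-type pools and 1 null pool.

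Pools were put in 13 groups and fitted together with edgeR 4.0.16 (TMM, filterByExpr, quasi-likelihood test, false discovery rate of 0.05, R 4.3.3). In data simulated for PND12-PND14 minus PND7-PND10 with 27566 genes, 1 of 50 genes changed by 1.5-fold, 16 of 50 by 2-fold, 32 of 50 by 4-fold and 39 of 50 by 8-fold were recovered, with 2 false of 90 calls. Consecutive comparisons share pools and were not compared with each other. The gates of PND30 were also fitted alone, with and without the replicate number as a block, since by the study's sample list each replicate came from a single gonad; same-numbered pools correlated in their deviations (0.33, 0.11 and 0.22). DESeq2 1.42.0 was an alternative. The 7 genes, the lists and the rules for clusters were chosen with earlier results of these data known. Named are the 7 genes, in each comparison the partner and the regulator with the largest change past the threshold, and the genes of highest correlation. Stag3, a partner higher in 4N cells of PND30, was named outside this rule. Gene positions are from GENCODE and promoters from RefSeq (GRCm38.p6). Counting intervals and floors cover counting error only.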

Additional observations from a re-analysis of the deposited data

Results flagged for a closer look

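Of 49 groups of 4 to 10 pools in which a gene was checked, 2 held a pool far from the rest, and chance alone flags about 1 in 20. Sycp1 had 166.67 CPM in E13.5 replicate 1, where the next pool of E11.5-E13.5 was E13.5 replicate 2 with 71.13 CPM. Sycp3 had 37.17 CPM in PND6 replicate 1, where the next pool of PND2-PND6 was PND6 replicate 2 with 23.2 CPM. Both are the pools of the last time-point of their stage.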

How the results depend on the processing

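Of 924 values of the 7 genes under an alternative, 826 kept their direction and their side of the threshold, 36 lost their call, 22 gained one and 40 changed sign, none of which had passed the test. The range without each replicate in turn was 441 to 1022 called genes (3067 with all) for E11.5-E13.5 minus E8.5-E10.5, 4733 to 7029 (13042) for E14.5-E16.5, 284 to 4800 (6498) for E17.5-PND1, 3373 to 9057 (14044) for PND2-PND6, 0 to 567 (3858) for PND7-PND10, 1 to 1828 (2247) for PND12-PND14, 6368 to 9414 (13407) for PND30 4N and 406 to 3059 (4116) for PND30 1N, where each comparison has fewer pools. At PND7-PND10, edgeR called 0 genes without replicate 2, with 2475 at an unadjusted p under 0.05, and DESeq2 was not run there. Without PND8, 1042 genes were called at PND7-PND10, and without the cluster led by 1700018G05Rik 4646 at PND12-PND14. Leaving out that cluster or the 2N cells of PND14, the PND30 gates alone with no block, counting unnamed clusters as germ cells and E13.5 to E15.5 alone were chosen after seeing the data. Fitting PND30 alone with the replicate block called 7885 genes in place of 4116, and 5654 without the block. Replicate block and time-point together changed no call of the 7 genes between the Helq genotypes. There, DESeq2 called 2.82% of genes and E13.5 to E15.5 alone 0.376%, against 0.849%, and leaving out single pools gave 0.537% (without E12.5 null replicate 1; 0.557% without E15.5 wild type replicate 2) to 1.22%.

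Values that changed sign were the following, as log2 fold changes. In E17.5-PND1 minus E14.5-E16.5, Syce2 was at -0.052 with every gene of 1 UMI kept, -0.15 with no cell filter, -0.057 by the UMI rule, -0.004 with unnamed clusters, and -0.55 to 0.17 without a replicate, and Tex12 at -0.092 and -0.085. In PND2-PND6 minus E17.5-PND1, Sycp2 was at -0.11 without TMM and -0.062 in DESeq2, and Sycp3 at -0.12 to 0.16 without a replicate. In PND7-PND10 minus PND2-PND6, Tex12 was at -0.42 to 0.16. In PND12-PND14 minus PND7-PND10, Syce2 was at -0.001 without TMM, -0.034 with unnamed clusters and -0.12 to 0.13 without a replicate. In PND30 4N minus PND12-PND14, Syce3 was at 0.22 in DESeq2 and -0.64 to 0.068 without a replicate. In PND30 1N minus PND30 4N, Syce1 was at -0.065 without TMM and -0.08 to 0.29 without a replicate. Between the genotypes, Sycp1 was at 0.044 and Tex12 at -0.004 in E13.5 to E15.5 alone, Syce2 at -0.011 with unnamed clusters, and without single pools Sycp1 was at -0.17 to 0.085 and Syce1 at -0.15 to 0.026. Distal minus proximal, without single pools, Sycp1 was at -0.15 to 0.024, Sycp2 at -0.09 to 0.082, Syce1 at -0.015 to 0.12, Syce3 at -0.018 to 0.29 and Tex12 at -0.013 to 0.11.

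At 20000 UMIs per cell the share at PND12-PND14 was 84.99% for Sycp2, 95.65% for Syce1, 93.66% for Syce3 and 93.12% for Tex12, and without the cluster led by 1700018G05Rik it was 97.86% for Sycp2 and 99.82% for Tex12 at 50000 UMIs. By ranks, 2 of the 5 genes most like the 7 were the same. Without TMM the median of all genes moved by 0.209 at E14.5-E16.5, 0.181 at E17.5-PND1, -0.269 at PND2-PND6, -0.16 at PND7-PND10 and -0.291 at PND30 4N, and in DESeq2 by up to 0.35 at PND30 1N. Higher genes made 34.4% of calls at PND2-PND6 and 22.5% without TMM, and 87.9% at PND12-PND14 and 70.7% in DESeq2. The cause of these moves was not tested.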

Other observations

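Unnamed cells of the first adult replicate, 319 cells nearly all of a cluster led by Lcn2, Klk1b21 and Klk1b27, had 788.1 CPM of Sycp1, 369.7 of Sycp2, 115.2 of Sycp3, 374.9 of Syce1, 351.3 of Syce2, 343.0 of Syce3 and 361.6 of Tex12. The second adult replicate had 303.0, 277.5, 54.9, 503.7, 100.4, 213.9 and 61.5 CPM of the same genes. PND14 replicate 2 had 937.0, 410.1, 179.4, 369.3, 434.4, 387.6 and 370.2 CPM. The unnamed cells thus lay nearer to PND14 replicate 2 than to the other adult replicate for 6 of the 7 genes, all but Sycp3 by their distance in CPM, and the cause was not tested.

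Unnamed cells of E10.5 replicate 3, all of the cluster led by Spink1 and globin genes, had 536.0 CPM of Syce2, 76.6 of Syce1 and 5.59 of Sycp1. The 2 pools of E10.5 had 498.2 and 562.1 CPM of Syce2. Unnamed cells of E17.5 replicate 1 had 339.1 CPM of Tex12 and 104.3 of Syce2, and the pool of E17.5 replicate 2 had 368.0 and 92.6 CPM.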
